A study of Mus musculus with 6 samples.

Results

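The 10 genes followed here encode scaffold proteins of the excitatory postsynaptic density, and they were measured across the cell classes of the mouse prelimbic cortex (PL). They are 3 membrane-associated guanylate kinases (Dlg1, Dlg2 and Dlg4), 3 discs-large associated proteins (Dlgap1, Dlgap2 and Dlgap3), the 3 SHANK proteins (Shank1, Shank2 and Shank3) and the ankyrin repeat protein Anks1b. They were picked by symbol, and they are 10 of the 32285 genes in the deposited matrices. All 10 passed the filter on low counts in the pyramidal, inhibitory and PV comparisons. In oligodendrocyte precursors 9 of the 10 passed it when the conditions were compared, and Shank3 did not.

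The postsynaptic density is the protein layer beneath the membrane of an excitatory synapse. Dlg proteins bind the tails of glutamate receptors and potassium channels just under the membrane, Dlgap proteins bind the Dlg guanylate kinase domain from below, and Shank proteins bind Dlgap proteins and link them to Homer and the actin cytoskeleton, so that the families stack into one scaffold. Most excitatory synapses on cortical pyramidal neurons sit on spines that hold this scaffold, while parvalbumin interneurons carry many of theirs directly on the dendritic shaft. Variants in several of the genes, Shank3 and Dlgap2 among them, have been linked to autism or schizophrenia in people.

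Single-nucleus RNA was measured in the PL of male C57BL/6 mice. Run males were raised to weaning by mothers with a running wheel, and Sed males by mothers in standard cages. After weaning, the males were group-housed (GH) or kept in social isolation (SI). Cohort 1 held RunGH and SedGH males that had gone through tube tests of social dominance, and cohort 2 held RunGH, SedGH, RunSI and SedSI males with no earlier behavioral test. The study picked the cohort 1 males by rank, and how rank was divided between Run and Sed is not in the labels, so its part in the cohort 1 differences was not tested. Each of the 6 libraries was made from nuclei of several males, no brothers among them, pooled before capture, so single animals could not be compared and every p-value below measures the spread between libraries. No combination of cohort, maternal environment and housing was repeated, so in the condition fits this spread is what the added terms leave. A housing effect that differs between Run and Sed, for example, counts as spread there. The labels give postnatal day 21, the day of weaning, while the study's methods describe adult males at tissue collection. Isolation began at weaning, so the label is not the collection age of the isolated males. Testing history and cohort changed together, so an effect of one cannot be told apart from the other.

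After filtering, 42595 nuclei remained, from 4997 to 9936 in a library, and the libraries held from 19134955 to 188952936 unique molecular identifiers (UMIs) in all droplets. The median nucleus held 5586 and 6250 UMIs in the cohort 1 libraries. In cohort 2 it held 3396.5 in RunGH, 1637 in SedGH, 4033 in RunSI and 3600 in SedSI. SedGH of cohort 2 was thus the shallowest, and it is compared below with RunGH and with SedSI. The part of depth in the ratios of those pairs was not tested. Droplets below the nucleus limit, a measure of free RNA, held a median of 1065 and 1176 UMIs in cohort 1 and of 82 to 303 in cohort 2. Any 2 libraries shared between 5 and 22 nucleus barcodes. Clustering, from which the 10 genes were left out, gave 33810 pyramidal and 4299 inhibitory nuclei, and the latter included 1603 PV, 1318 SST, 497 NPY and 436 VIP nuclei, named for parvalbumin, somatostatin, neuropeptide Y and vasoactive intestinal peptide. There were also 1524 astrocytes, 401 oligodendrocyte precursors, 374 oligodendrocytes and 211 microglia. The names rest on marker genes, so each class is a marker-like class. The labelled cortex held both neuron types: the pyramidal markers Slc17a7 and Sv2b together reached 853 CPM in pyramidal nuclei and 124 CPM in inhibitory nuclei, and Gad1, Gad2 and Slc32a1 together reached 13 and 520 CPM. CPM are the UMIs of a gene scaled to a common total of all UMIs of the class in a library.

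The genes differ greatly in length, and because introns were counted, long genes collect more UMIs. Coordinates are on mm10, and all 10 genes lie on the plus strand. Dlg1 spans chr16:31663443-31875129 (212 kb), Dlg2 spans chr7:90476672-92449247 (1973 kb), and Dlg4 spans chr11:70016942-70047522 (30.6 kb). Dlgap1 lies at chr17:69969073-70821413 (852 kb), Dlgap2 at chr8:14095865-14847680 (752 kb) and Dlgap3 at chr4:127169204-127237022 (67.8 kb). Shank1 occupies chr7:44310253-44360572 (50.3 kb), Shank2 chr7:144001928-144424494 (423 kb) and Shank3 chr15:89499623-89560261 (60.6 kb), and Anks1b occupies chr10:89873509-90973300 (1100 kb). From 0.818% of the Dlgap2 span to 43.3% of the Dlg4 span is exonic in the annotation, and the rest is intron. Another counted gene overlaps Dlg2 and Anks1b on the same strand, and 1 or 2 antisense genes overlap Dlg2, Dlgap1, Dlgap2, Shank1, Shank2 and Shank3. What these overlaps did to the counts was not tested.

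In pyramidal nuclei, levels divided by gene length ran from 0.85 to 4.22 CPM per kb over the 10 genes. The mean level was 4.22 ± 1.38 CPM per kb for Dlg4 (SD, n = 6 libraries), which encodes PSD-95, the main scaffold of the mature synapse. Shank1 followed at 4.2 ± 1.91, Dlgap1 at 3.54 ± 0.346, Dlg2 at 3.26 ± 0.331 and Dlgap2 at 3.04 ± 0.521 CPM per kb. The place of Dlg4 and Shank1 in this order rests on cohort 1, where both were high. In each cohort 2 library Shank1 lay below Dlgap1 on this scale, and Dlg4 did so in RunGH and SedGH of cohort 2. Dlgap3 (2.49), Anks1b (2.33), Dlg1 (1.64) and Shank3 (1.43) were lower on the same scale, and Shank2 was lowest at 0.85 CPM per kb. All later levels are CPM, of a gene or of a named sum of genes, compared across classes or libraries and not between genes. The 10 genes together held 15593 ± 1915 CPM in pyramidal nuclei and 15132 ± 1770 CPM in inhibitory nuclei (SD, n = 6), and 4990 ± 2436 CPM in astrocytes.

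**Figure D1:**
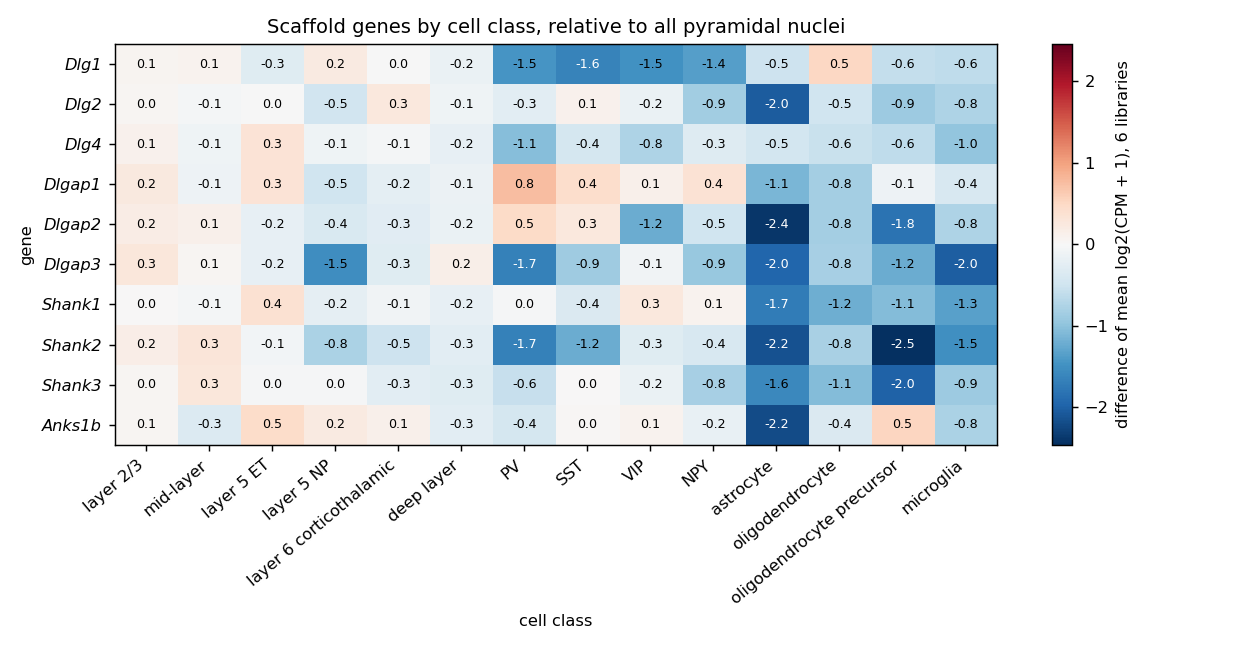
Mean level of each scaffold gene in 14 cell classes relative to all pyramidal nuclei, as the difference of log2(CPM + 1) averaged over 6 libraries (color and printed value). Dlg1, Dlg4, Dlgap3 and Shank2 are blue across most interneuron columns, Dlgap1 is red in PV, and most genes are deep blue in astrocytes.

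The first comparison asked which scaffold genes differ between the principal and the inhibitory neurons of the PL. Of the 10 genes, 8 were lower in inhibitory than in pyramidal nuclei, 1 was higher and 1 did not pass the test. The Dlg and Shank genes were all called lower, though by different amounts, while the Dlgap genes did not share a direction. The largest differences were in Dlg1, Shank2 and Dlgap3, each of a different family, and Dlgap1 ran opposite to its relative Dlgap3. In the same test 52.6% of the 15662 genes tested were called, 25.6% lower and 27.0% higher, so passing the test was common.

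Among the Dlg genes, Dlg1 encodes a scaffold that traffics AMPA and NMDA receptors and also sits at junctions of non-neuronal cells. Its level was 316, 338 and 409 CPM in pyramidal nuclei (lowest, median and highest of 6 libraries) and 101, 113 and 170 CPM in inhibitory nuclei. The ranges did not overlap, and every library had the lower value in inhibitory nuclei. The difference was 2.99-fold, or -1.58 on the log2 scale (SE 0.08, adjusted p = 1.35e-11, edgeR quasi-likelihood test with library as a block). Dlg4 ran from 102 to 201 CPM in pyramidal and from 50.05 to 139 CPM in inhibitory nuclei. These ranges overlapped because the 2 cohort 1 libraries were high in both classes, but inhibitory nuclei were lower in 6 of 6 libraries (log2 difference -0.81, SE 0.07). Dlg2, a scaffold of NMDA receptors and potassium channels, was 1.3-fold lower (log2 difference -0.38, SE 0.05), again in all 6 libraries. Interneuron types differed in Dlg2, with a mean log2(CPM + 1) of 12.75 in SST, 12.48 in VIP, 12.39 in PV and 11.78 in NPY nuclei. The SST value lay above that of layer 2/3 nuclei (12.69).

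Dlgap1, which links PSD-95 to Shank proteins, was the gene with the opposite sign. It measured 2632, 2960 and 3472 CPM in pyramidal nuclei and 3823, 4222 and 4480 CPM in inhibitory nuclei (lowest, median and highest). The ranges did not overlap. The fitted inhibitory level was 1.25-fold higher (log2 difference 0.32, SE 0.05, edgeR adjusted p = 2.72e-05), and the ratio of mean CPM was 1.39. The fit scales the classes to each other by TMM size factors, and for all 10 genes its ratio of inhibitory to pyramidal level was below that of the CPM. Dlgap3, the family member best known from the striatum, was 2.14-fold lower in inhibitory nuclei (log2 difference -1.10, SE 0.07) and lower in each of the 6 libraries. By interneuron type its mean log2(CPM + 1) was 7.26 in VIP, 6.48 in SST, 6.41 in NPY and 5.69 in PV nuclei. The VIP value lay above that of layer 6 corticothalamic nuclei (7.05). Dlgap2 did not pass the test (log2 difference -0.05, SE 0.06, edgeR adjusted p = 0.513). Its inhibitory value was the higher one in 4 libraries and the lower one in the other 2.

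Of the Shank genes, Shank2 was 2.36-fold lower in inhibitory nuclei (log2 difference -1.24, SE 0.06), with 233, 273 and 590 CPM against 111, 128 and 278 CPM. The inhibitory value was lower in every library. By type, the mean log2(CPM + 1) of Shank2 was 8.08 in VIP and 7.99 in NPY nuclei, above layer 6 corticothalamic nuclei (7.87). It was 7.17 in SST and 6.73 in PV nuclei. Shank3 was 1.34-fold lower (log2 difference -0.43, SE 0.07) in all 6 libraries. Shank1, which binds the same Dlgap partners, differed least among the called genes (log2 difference -0.20, SE 0.06, edgeR adjusted p = 0.00597). Its mean log2(CPM + 1) was 7.88 in VIP and 7.72 in NPY nuclei, above layer 2/3 nuclei (7.63). PV (7.60) and SST nuclei (7.27) lay below that layer. Inhibitory nuclei had the higher value in 2 libraries, and the gene was not called when only the 4 group-housed libraries were used (log2 difference -0.14, edgeR adjusted p = 0.0879). Anks1b, a PSD-95 partner that can travel from the synapse to the nucleus, was 1.28-fold lower (log2 difference -0.35, SE 0.05). Free RNA is shared by all nuclei of a library, and the pyramidal markers in inhibitory nuclei stood at 181 to 205 CPM in cohort 1 and 57.3 to 114 CPM in cohort 2. With the background subtracted, 9 scaffold genes were called, as many as in the main fit, where 52.6% of all genes were called. Over the alternatives the count over all genes ran from 3819 to 8784.

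**Figure D2:**
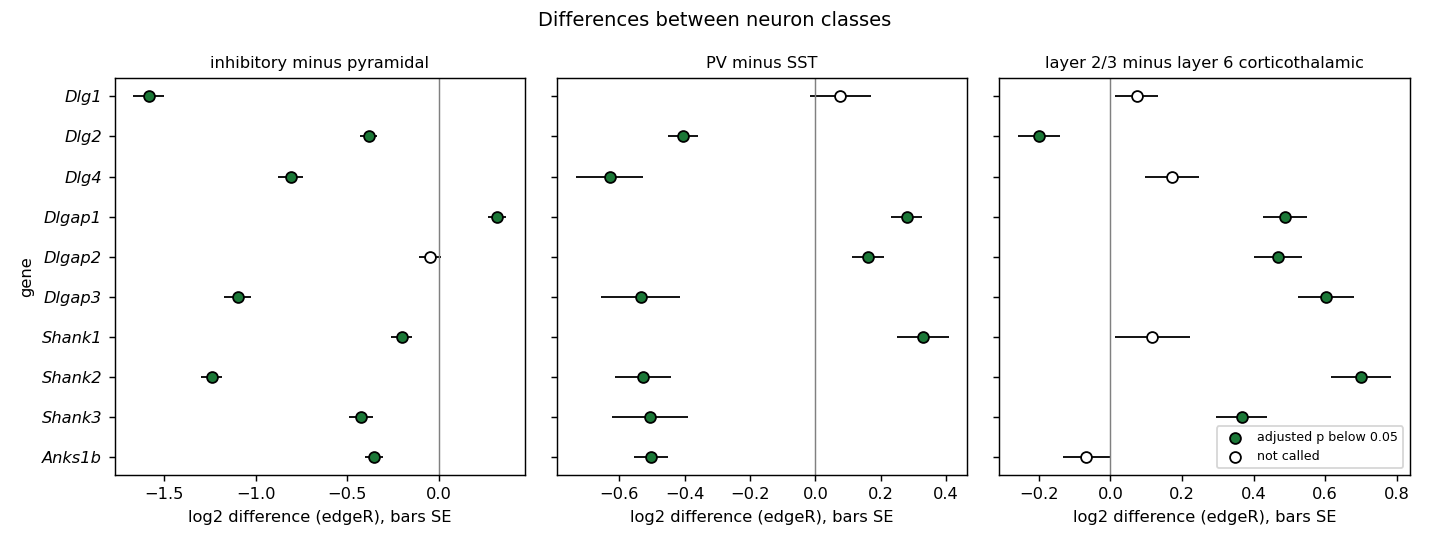
Log2 differences of the 10 genes between neuron classes from edgeR with library as a block (points; bars are SE; filled points have an adjusted p below 0.05). Dlg1, Shank2 and Dlgap3 lie farthest left for inhibitory minus pyramidal, Dlgap1 lies right of 0 in each panel, and Shank1 lies on the other side of 0 from Shank2 and Shank3 for PV minus SST.

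PV and SST interneurons were compared next, since they were the most frequent interneuron classes. Of the 10 genes, 6 were lower in PV than in SST nuclei, 3 were higher and Dlg1 did not pass the test. In all, 26.0% of the 10979 genes tested were called, 13.6% lower and 12.4% higher. Dlg4 was lowest in PV of all 14 classes, whereas Dlgap1 and Dlgap2 reached their highest mean level there.

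Dlg4 measured 36.6, 52.3 and 104 CPM in PV and 51.4, 87.3 and 173 CPM in SST nuclei (lowest, median and highest), a 1.55-fold difference (log2 difference -0.63, SE 0.10, edgeR adjusted p = 5.23e-06). PV was the lower class in every library although the ranges overlapped. Dlg2 measured 4980 to 6229 CPM in PV and 6486 to 8082 CPM in SST nuclei, with no overlap (log2 difference -0.41, SE 0.05). Anks1b also had separate ranges, 1614 to 2263 CPM in PV and 2301 to 2942 CPM in SST nuclei (log2 difference -0.50, SE 0.05). Dlgap3, Shank2 and Shank3 were lower in PV by 0.53, 0.53 and 0.51 on the log2 scale. Dlgap3 was lower in 6 of 6 libraries, and Shank2 and Shank3 in 5 of 6. The Dlg1 difference did not pass the test, with 60.1 to 168 CPM in SST and 89.5 to 192 CPM in PV nuclei (log2 difference 0.08, SE 0.09, edgeR adjusted p = 0.634).

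Dlgap1 had separate ranges in the other direction, 4382 to 5644 CPM in PV and 3802 to 4316 CPM in SST nuclei (log2 difference 0.28, SE 0.05, edgeR adjusted p = 1.01e-05). Dlgap2 was higher in PV nuclei in all 6 libraries, but by only 0.16 on the log2 scale (SE 0.05, edgeR adjusted p = 0.0131). That call was lost without the RunGH library of cohort 2 (log2 difference 0.16, adjusted p = 0.0642) and with the group-housed libraries alone (0.18, adjusted p = 0.055). Shank1 was 1.26-fold higher in PV nuclei (log2 difference 0.33, SE 0.08), in 5 of 6 libraries. It was not called once nuclei were thinned to 1000 UMIs (log2 difference 0.16, edgeR adjusted p = 0.455). Thinning also left out nuclei below 1000 UMIs, all of them in SedGH of cohort 2. There it dropped 52 of 208 PV and 40 of 174 SST nuclei. So the Shank genes split in sign between these interneurons, with Shank1 higher and Shank2 and Shank3 lower in PV nuclei.

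**Figure D3:**
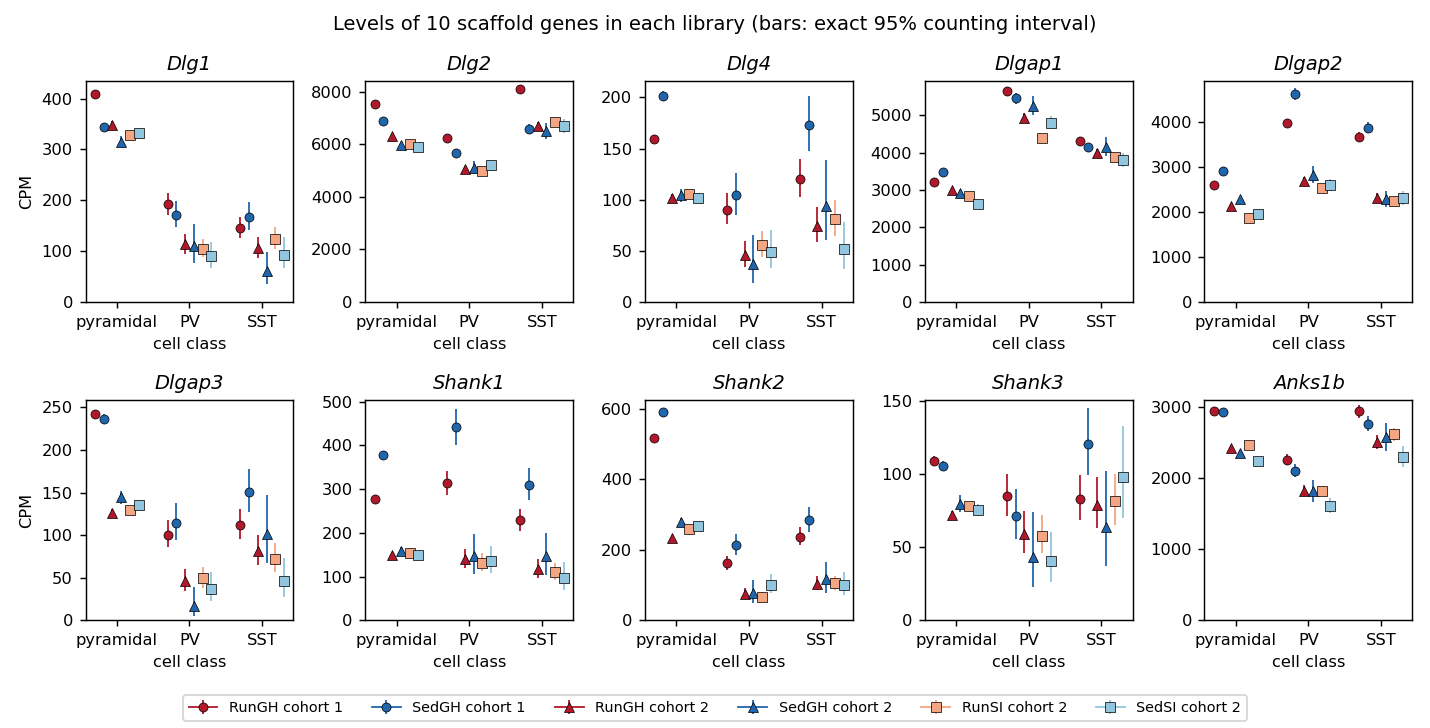
CPM of each scaffold gene in pyramidal, PV and SST nuclei, 1 point per library (red Run, blue Sed, circles cohort 1, triangles cohort 2 GH, squares cohort 2 SI; bars are exact 95% counting intervals). Cohort 1 circles stand above the cohort 2 points for most genes in pyramidal and PV nuclei, and relative to the level the counting intervals are widest for Dlg4, Dlgap3 and Shank3 in PV and SST nuclei.

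Upper and deep pyramidal neurons were compared through layer 2/3 and layer 6 corticothalamic nuclei. In this comparison 5 genes were higher in layer 2/3, 1 was lower and 4 did not pass the test, against 42.4% of 14293 genes called, 23.5% higher and 18.9% lower. Both Dlgap1 and Dlgap2 were on the upper-layer side, where Dlgap3 and Shank2 also lay.

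Shank2 measured 242, 301 and 754 CPM in layer 2/3 and 170, 206 and 388 CPM in layer 6 (lowest, median and highest), a 1.62-fold difference (log2 difference 0.70, SE 0.08, edgeR adjusted p = 1.304e-06). Layer 2/3 was higher in all 6 libraries. Dlgap3 was 1.52-fold higher (log2 difference 0.60, SE 0.08) and Dlgap2 1.38-fold higher (0.47, SE 0.07), also in every library. Dlgap1 was the gene whose ranges did not overlap, 3082 to 4281 CPM in layer 2/3 and 2306 to 2947 CPM in layer 6 (log2 difference 0.49, SE 0.06). Shank3 was higher in 5 of 6 libraries (0.37, SE 0.07).

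Dlg2 went the other way, with 5909 to 7991 CPM in layer 2/3 and 7279 to 8778 CPM in layer 6 (log2 difference -0.20, SE 0.06, edgeR adjusted p = 0.0109). Layer 6 was higher in 6 of 6 libraries, but the call was lost without the SedGH library of cohort 2 (log2 difference -0.18, adjusted p = 0.0591) and with the group-housed libraries alone (-0.16, adjusted p = 0.0978). Dlg4 (0.17, SE 0.08) and Anks1b (-0.07, SE 0.07) did not pass the test with all libraries. Dlg4 passed it in 4 of 17 alternatives, among them without the RunGH (0.22, adjusted p = 0.0484) or the RunSI library of cohort 2 (0.22, adjusted p = 0.0471). Anks1b passed it without the RunGH (-0.13, adjusted p = 0.0448) or the SedGH library of cohort 1 (-0.15, adjusted p = 0.0164). Dlg1 and Shank1 differed by 0.07 and 0.12 on the log2 scale (SE 0.06 and 0.10) and did not pass the test.

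Non-neuronal classes were set against pyramidal nuclei to see how far the scaffold genes are neuronal. All 10 genes were lower in astrocytes, where 61.8% of the 8152 genes tested were called (28.6% lower), and the differences ran from -0.53 on the log2 scale for Dlg4 to -2.45 for Dlgap2. Dlg2 fell from a median of 6161 CPM in pyramidal nuclei to 1198 CPM in astrocytes, and Anks1b from 2450 to 457 CPM. Neither gene's ranges overlapped. Dlg1 (-0.62) and Dlg4 (-0.53), whose ranges did overlap, were not called after thinning to 1000 UMIs (-0.35 and -0.26, adjusted p = 0.0829 and 0.198), nor was Dlg1 at 2 times the UMI minimum (-0.45, adjusted p = 0.0752). The astrocyte values themselves split by cohort: the summed scaffold genes reached 7952 and 8240 CPM in cohort 1 and 2993 to 4072 CPM in cohort 2. Pyramidal markers in astrocytes split in the same way, 347 and 379 CPM against 131 to 206 CPM, and their part in the scaffold values was not tested. Microglia had 10 lower genes (log2 differences of -0.78 to -1.19, 35.3% of genes called, 18.4% lower), of which 3 were called at 2 times the UMI minimum (9.7% lower). Pyramidal markers in microglia stood at 541 and 685 CPM in cohort 1 and 85.4 to 129 CPM in cohort 2.

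Oligodendrocytes and their precursors each had 1 scaffold gene with a higher CPM than pyramidal nuclei in every library, though neither difference passed the test. In oligodendrocytes 8 genes were lower (27.5% of genes called, 14.8% lower), from Shank1 (log2 difference -1.21) to Dlg4 (-0.53). The Dlg2 call (-0.65, adjusted p = 0.0448) was lost without any one library other than SedGH of cohort 2 (-0.57 to -0.65, adjusted p = 0.0561 to 0.137), and in 5 other alternatives (-0.48 to -0.66, adjusted p = 0.0556 to 0.376). The Dlg4 call was lost without RunSI (-0.43, adjusted p = 0.101), with the group-housed libraries alone (-0.33, adjusted p = 0.294) and at 2 times the UMI minimum (-0.06, adjusted p = 0.944). At that minimum 2 genes were called lower (2.94% of all genes), and 5 with the group-housed libraries alone (5.15%). Anks1b did not pass the test (-0.52, SE 0.23, adjusted p = 0.0932) but was called lower without the filter on low counts (-0.72), with doublets left out (-0.65) and with the background subtracted (-0.69). Dlg1 was not called (log2 difference 0.35, SE 0.17, edgeR adjusted p = 0.126). Its levels were 502 and 681 CPM in the RunGH and SedGH libraries of cohort 1, and 422, 427, 399 and 586 CPM in the RunGH, SedGH, RunSI and SedSI libraries of cohort 2. Each of the 6 values exceeded the pyramidal value of its own library, and oligodendrocytes had the highest mean Dlg1 level of the 14 classes. The difference was positive in all 17 alternative settings, from 0.14 to 0.61, and it was called by DESeq2 (0.42, adjusted p = 0.0064), with RLE size factors (0.43, adjusted p = 0.0331) and after thinning (0.61, adjusted p = 0.00885). At 1000 UMIs per nucleus, 35.5 to 59.3% of oligodendrocytes had a Dlg1 UMI in each library, compared with 26.4 to 32.8% of pyramidal and 9.47 to 20.2% of PV nuclei. Nuclei below 1000 UMIs, all in SedGH of cohort 2, were left out of these shares. Without thinning the share was 45.7 to 85.5% in oligodendrocytes, whose median depth ran from 1435 to 3687 UMIs over the libraries. It was 42.0 to 86.8% in pyramidal nuclei (1694 to 6817 UMIs) and 14.9 to 62.6% in PV nuclei (1342.5 to 5629 UMIs). Free RNA was estimated at 25.9 and 28.8% of oligodendrocyte UMIs in cohort 1 and at 4.72 to 8.15% in cohort 2. Dlg1 made up 445 and 423 CPM of that RNA in cohort 1, above the pyramidal level of the same libraries, and 136 to 177 CPM in cohort 2, below it. With the background subtracted the log2 difference was 0.27 (adjusted p = 0.256), and the shares of nuclei were not corrected for it. Pyramidal markers stood at 57.3% of their pyramidal level in oligodendrocytes (489 CPM), which bears on the genes that were lower as well, and their part was not tested.

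In oligodendrocyte precursors 8 genes were lower (34.7% of genes called, 16.8% lower), led by Dlgap2 (log2 difference -1.90, SE 0.24). Anks1b was the exception, with 4060, 3613, 3017, 4848, 3300 and 3564 CPM in the 6 libraries in the order given above. All of these values exceeded every pyramidal value, whose highest was 2946 CPM. In the fit, which scales the classes to each other, the difference was not called (log2 difference 0.28, SE 0.23, edgeR adjusted p = 0.38), and it was -0.02 without the filter on low counts. Dlgap1 (-0.38, SE 0.19, adjusted p = 0.111) did not pass the test either, but it was called lower by DESeq2 (-0.31), without the filter on low counts (-0.68), with doublets left out (-0.55) and with the background subtracted (-0.52). The number of lower genes ran from 5 after thinning, when 9 were tested, to 9. Thinning kept 3 of the 15 precursors in SedGH of cohort 2. Pyramidal markers in the precursors stood at 320 CPM, 37.5% of their pyramidal level, and their part was not tested. The precursors were few, 15 to 119 nuclei in a library.

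Ordering the 14 classes by mean level placed different classes on top for different genes. Layer 5 ET (extratelencephalic) nuclei were highest for Dlg4 (164 ± 54.1 CPM) and Shank1 (274 ± 119 CPM), mid-layer nuclei for Shank2 (438 ± 187 CPM) and Shank3 (105 ± 14.6 CPM), and layer 2/3 nuclei for Dlgap3 (205 ± 71.6 CPM; all SD, n = 6). Layer 6 corticothalamic nuclei led for Dlg2 (7659 ± 563 CPM) and PV nuclei for Dlgap1 (5076 ± 465 CPM) and Dlgap2 (3203 ± 877 CPM). Anks1b was highest in oligodendrocyte precursors and Dlg1 in oligodendrocytes. The cohorts were clustered apart, so a class need not hold the same nuclei in both. Cpne9 and Kcnh5 were among the leading genes of the mid-layer cluster in cohort 2. In cohort 1 they led a pyramidal cluster without a layer name. At 2 times the UMI minimum the highest class was VIP for Shank1 and layer 5 ET for Anks1b, and without SedGH of cohort 2 it was layer 5 ET for Anks1b. Astrocytes had the lowest mean CPM for 8 of the 10 genes. By mean log2(CPM + 1), on which neighbors were compared, they were lowest for 5, and microglia or oligodendrocyte precursors, where some libraries held few or no UMIs, were lowest for Dlgap3, Shank2 and Shank3. Neighbors in the order of mean log2(CPM + 1) were compared within libraries by an exact two-sided sign-flip permutation test, in 130 pairs. In 18 pairs every library had the same order (exact p = 0.03125, the smallest that 6 libraries allow), and after adjustment no pair passed (smallest adjusted p = 0.226). With that smallest p, a pair could pass only if most of the 130 pairs reached it. The missing calls therefore do not show that neighbors are alike. Among the 18 were Dlgap1 in PV over SST (difference of log2(CPM + 1) 0.32, SD 0.08), Dlgap2 in the same pair (0.21, SD 0.07), Shank3 in mid-layer over layer 2/3 (0.23, SD 0.11) and Anks1b in layer 5 ET over NP (near-projecting) nuclei (0.24, SD 0.08). In every other neighboring pair at least 1 library had the opposite order.

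The gene whose mean levels over the 14 classes most resembled those of each scaffold gene was found among 16014 genes. For Dlg4 it was Kalrn, which encodes a guanine nucleotide exchange factor of dendritic spines (Pearson r = 0.911 across classes). For Dlgap3 it was Lrfn2, a synaptic adhesion protein that binds PSD-95 (r = 0.920), and for Shank1 it was Kcnj12, an inward rectifier potassium channel (r = 0.943). The others were Rasal1 for Dlg1 (0.919), Panx2 for Dlg2 (0.921), Plxnc1 for Dlgap1 (0.900), Gm16126 for Dlgap2 (0.970), Sidt1 for Shank2 (0.944), Grin1os for Shank3 (0.948) and Pianp for Anks1b (0.888). None was itself a scaffold gene of the 10. The points are the same 6 libraries averaged, and the classes share their depth and free RNA, so these values only describe the match.

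Beside the scaffold, 42 other genes of the excitatory postsynapse were listed. In inhibitory against pyramidal nuclei, 21 of the 42 were lower and 13 higher, where 25.6% of all genes were lower and 27.0% higher, with a median log2 difference of -0.19 against -0.40 for the 10 scaffold genes and 0.03 for all genes. Lowest were Baiap2, an actin regulator of spines (-2.50), the scaffold Cnksr2 (-1.96) and the kinase Camk2a (-1.62). Highest were Grip1 (3.03), which anchors AMPA receptors, Sipa1l2 (1.91) and Grip2 (1.78). In PV against SST nuclei (13.6% of all genes lower, 12.4% higher) 13 of 41 were lower, led by Cacng3 (-2.07), Grin2a (-1.25) and Cyfip1 (-1.20), and 10 were higher, led by Lrrtm2 (1.3), Sipa1l2 (0.98) and Magi1 (0.88). In layer 2/3 against layer 6 nuclei (23.5% of all genes higher, 18.9% lower) 24 of 41 were higher, with Lrrtm4 (2.07), Magi3 (2.05) and Cacng3 (1.83) on top, and 9 were lower, Lrrtm2 (-1.80), Sipa1l2 (-1.61) and Grip2 (-1.32) most of all.

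A second list held 8 genes of the inhibitory postsynapse, of which Nlgn2 also stood in the first. In inhibitory against pyramidal nuclei, 2 were higher, Slitrk3 (log2 difference 0.49) and Iqsec3 (0.24), and 1 was lower, Shisa7 (-0.46), with a median of 0.06 over the 8. Over all genes 52.6% were called in this test, 26.0% in PV against SST and 42.4% in layer 2/3 against layer 6 nuclei. In PV against SST nuclei Insyn2a (1.31) and Iqsec3 (0.47) were higher and Shisa7 (-0.64) was lower. In layer 2/3 against layer 6 nuclei Slitrk3 (1.03) and Nlgn2 (0.43) were higher, and Insyn2a (-1.15) and Iqsec3 (-0.26) were lower.

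The study asked whether transcription in particular PL cell types changes with the early environment, in the maternal and in the isolation model. With a Wilcoxon test over single nuclei in each cohort, it reported Run against Sed differences in pyramidal neurons and PV interneurons. Those in PV interneurons were mostly lower in Run. The fits here take libraries as the units, so their counts are not like the study's. For the 10 scaffold genes no Run against Sed difference passed the test, in pyramidal or PV nuclei or in the other 13 classes. In pyramidal nuclei 0 of 17959 genes were called by edgeR in a fit with cohort, maternal environment and housing (0%, 1327 genes at an unadjusted p below 0.05, and 45 called by DESeq2). Of the scaffold genes 1 had an unadjusted p below 0.05 and DESeq2 called 0. The fit had 2 residual degrees of freedom, and in simulated data of this design it found 61.2% of changes of 1 log2 unit and 89.8% of changes of 2 units, while 11.4% of its calls were false. Of changes of 1 unit it found 51.0% for maternal environment in PV nuclei and 50.5% for housing in pyramidal nuclei. Changes below 1 unit were not simulated, so how often it finds differences as small as those below is not known.

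That gene was Shank2. Its pyramidal level was 518 CPM in RunGH and 590 CPM in SedGH of cohort 1, 233 CPM in RunGH and 279 CPM in SedGH of cohort 2, and 260 CPM in RunSI and 267 CPM in SedSI. Run was below Sed in each of the 3 pairs, by 0.19, 0.26 and 0.04 on the log2 scale, and only the last of these had a 95% counting interval that reached 0. The fitted log2 difference was -0.21 (SE 0.09, unadjusted p = 0.0489, edgeR adjusted p = 0.674). It was called without the RunGH (-0.24, adjusted p = 0.0331) or the SedGH library of cohort 1 (-0.23, adjusted p = 0.0384), when only cohort 2 informs the comparison. In these 2 fits 14.1% and 13.9% of all genes were called, so a call was common there. Shank1 had a fitted difference of similar size (-0.21, SE 0.10, adjusted p = 0.676), but its pairs differed by -0.45, -0.09 and 0.05, so most of it came from cohort 1. Dlgap2 lay lower in Run in all 3 pairs (-0.16, -0.095 and -0.06, adjusted p = 0.695). Dlg2 (0.13, 0.08 and 0.04) and Anks1b (0.01, 0.04 and 0.14) lay higher in Run in all 3 pairs, with fitted differences of 0.03 and 0.01. The genes other than Shank1, Shank2 and Dlgap2 had fitted differences between -0.16 and 0.08.

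In PV nuclei 11 of 10284 genes were called (0.107%, 628 at an unadjusted p below 0.05), none of them a scaffold gene. Shank2 again had the only scaffold p below 0.05 before adjustment (log2 difference -0.39, SE 0.17, unadjusted p = 0.0275, edgeR adjusted p = 0.775). Its PV levels were 162 and 213 CPM in RunGH and SedGH of cohort 1, 74.3 and 76.5 CPM in cohort 2, and 66.5 and 101 CPM in RunSI and SedSI. Run was lower in all 3 pairs, with counting intervals that excluded 0 in the first and the last. Shank3 was higher in Run in all 3 pairs (0.25, 0.45 and 0.51) with intervals that all included 0 (fitted 0.37, SE 0.21, adjusted p = 0.863). Dlgap3 differed most within one pair, 46.4 CPM in RunGH and 16.6 CPM in SedGH of cohort 2 (log2 ratio 1.48, 95% interval 0.17 to 3.16). That value rests on 55 and 5 UMIs, and the same ratio was -0.18 in cohort 1 and 0.40 under isolation. DESeq2 called 0 scaffold genes and gave no adjusted p for Dlg4, Dlgap3, Shank2 and Shank3.

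The maternal difference was also compared directly between PV and pyramidal nuclei. No scaffold gene and 0 of 15202 genes were called (0%, 590 genes and 1 scaffold gene at an unadjusted p below 0.05, and 0 scaffold genes by DESeq2). The scaffold gene was Shank3, whose Run minus Sed difference was larger in PV by 0.42 (SE 0.19, unadjusted p = 0.0243). In the other 13 classes 0 of 129 tests on scaffold genes were called, 13 at an unadjusted p below 0.05, and DESeq2 called 0. Over all genes 0.0543% of 117961 tests were called there. Leaving out 1 library brought 3 genes past the test: Dlgap2 in mid-layer nuclei without SedGH of cohort 1 (-0.21, adjusted p = 0.0407), Dlgap3 in deep-layer nuclei without RunGH or SedGH of cohort 1 (-0.46, adjusted p = 0.023 and 0.0212), and Shank2 in oligodendrocytes without RunGH of cohort 2 (1.13, adjusted p = 0.0208). In the same fits 7.62% of all genes were called in mid-layer nuclei, 3.14% and 3.27% in deep-layer nuclei and 3.96% in oligodendrocytes.

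**Figure D4:**
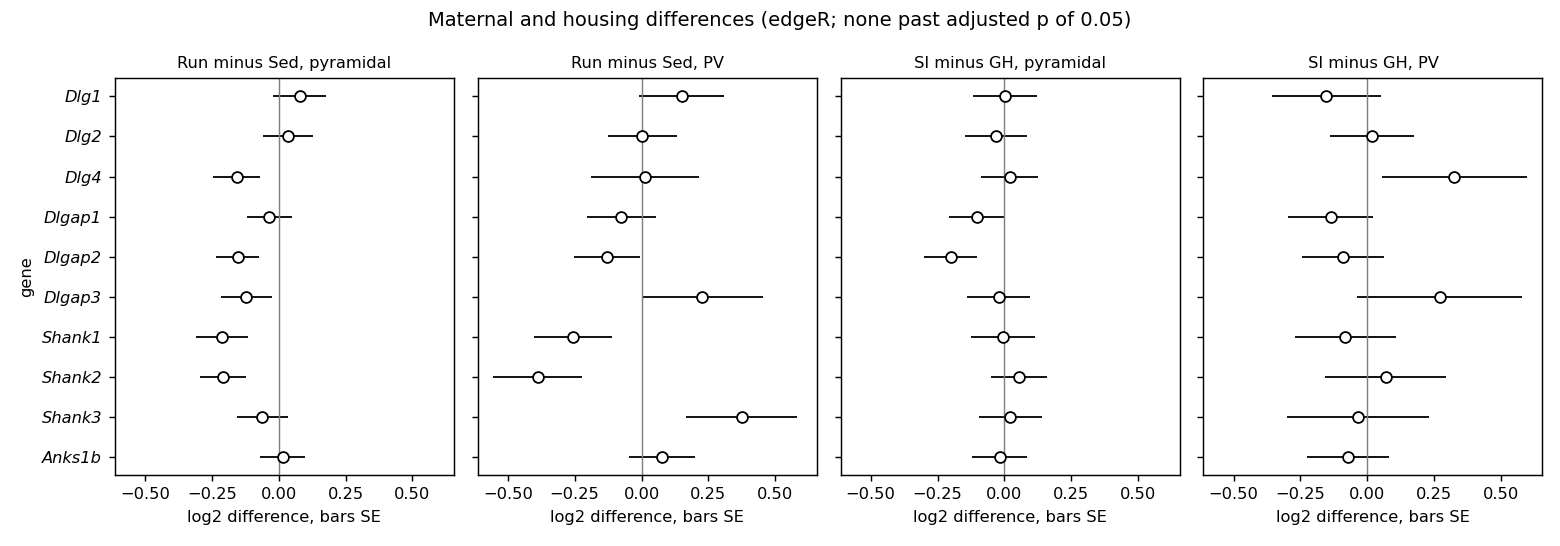
Log2 differences of the 10 genes between Run and Sed and between SI and GH libraries in pyramidal and PV nuclei (points; bars are SE; edgeR with cohort, maternal environment and housing in one fit). No point passed an adjusted p of 0.05, and the pyramidal values lie between -0.21 and 0.08.

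Social isolation after weaning was compared with group housing in cohort 2, as a single term over the Run and the Sed pair. The study tested the pairs apart. It reported mostly lowered genes in PV interneurons of SedSI against SedGH, and no substantial change in RunSI against RunGH. A difference confined to the Sed pair had no fitted test of its own here. No scaffold gene passed the test. In pyramidal nuclei 0 of 17959 genes were called by edgeR (0%, 171 at an unadjusted p below 0.05) and 0 by DESeq2, and 0 scaffold genes had an unadjusted p below 0.05. Dlgap2 had the largest pyramidal difference. It measured 2136 CPM in RunGH and 1873 CPM in RunSI, and 2282 CPM in SedGH and 1948 CPM in SedSI. Both isolated libraries lay below both group-housed libraries, by 0.19 and 0.23 on the log2 scale with counting intervals that excluded 0. The fitted difference was -0.20 (SE 0.10, unadjusted p = 0.0891, edgeR adjusted p = 0.9999). Dlgap1 was lower in isolation in both pairs as well (-0.07 and -0.15, fitted -0.10, SE 0.10). Shank2 ran in opposite directions in Run (0.16) and Sed (-0.06).

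In PV nuclei 0 of 10284 genes were called (157 at an unadjusted p below 0.05, 0 by DESeq2) and 0 scaffold genes had an unadjusted p below 0.05. Dlgap1 measured 4923 CPM in RunGH against 4382 CPM in RunSI and 5258 CPM in SedGH against 4795 CPM in SedSI. Both isolated libraries lay below both group-housed libraries, by 0.17 and 0.13 on the log2 scale within the pairs, but the fitted difference (-0.14, SE 0.16) did not pass the test. The largest fitted values were 0.33 for Dlg4 (SE 0.27) and 0.27 for Dlgap3 (SE 0.31), each close to its error. Over 16 alternatives they ran from -0.50 to 0.62 and from -0.81 to 1.37, so neither direction held in all of them. The alternatives include a fit without the cohort term, in which housing also takes up the cohort difference. For PV minus pyramidal, which lacks that fit, the Dlg4 value ran from 0.20 to 0.60 and the Dlgap3 value from -0.10 to 1.66 over 15 alternatives. The housing difference in PV minus that in pyramidal nuclei was called for 0 scaffold genes (0 also by DESeq2, and 0 at an unadjusted p below 0.05) and for 0.0329% of 15202 genes. In the other 13 classes 0 of 129 scaffold tests were called, 3 had an unadjusted p below 0.05, and DESeq2 called 0, against 0.00593% of all tests called.

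Of the 42 other excitatory postsynaptic genes, 0 were called for maternal environment or housing in pyramidal or PV nuclei. In the other 13 classes 1 test on this list was called for maternal environment, Lrrtm4 in astrocytes, higher in Run (log2 difference 0.57, SE 0.14, edgeR adjusted p = 0.0183), and 0 for housing. Over all genes 0.0543% and 0.00593% of the tests in these classes were called. In astrocytes 14 of 9555 genes were called higher in Run and 6 lower. Pyramidal markers in astrocytes ran from 131 to 379 CPM over the libraries, and their part in the Lrrtm4 call was not tested. For maternal environment 7 of 42 in pyramidal and 4 of 41 in PV nuclei had an unadjusted p below 0.05. Over all genes the shares were 7.39% and 6.11%. For housing the counts were 0 and 1, where 0.95% and 1.53% of all genes had such a p. The 8 inhibitory postsynaptic genes gave 0 calls too, with 2 and 0 at an unadjusted p below 0.05 for maternal environment and 0 and 0 for housing.

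In pyramidal and PV nuclei more genes were called between the cohorts than between the conditions. In pyramidal nuclei all 10 scaffold genes were lower in cohort 2, and 9 of the 10 passed the test. Over all genes 38.4% were called, 18.1% lower. The steepest differences were in Shank2, Shank1, Dlgap3 and Dlg4, and the shallowest in Dlgap1 and Dlg1. Cohort 2 also differed in testing history, depth and free RNA, and these cannot be told apart.

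The Shank2 levels given above, 518 and 590 CPM in cohort 1 and 233 to 279 CPM in cohort 2, were 2.43-fold apart (log2 difference -1.28, SE 0.11, edgeR adjusted p = 9.86e-04). Shank1 measured 278 and 379 CPM in RunGH and SedGH of cohort 1, and 149, 159, 155 and 149 CPM in RunGH, SedGH, RunSI and SedSI of cohort 2 (-1.24, SE 0.12). Dlg4 measured 160 and 201 CPM in cohort 1, and 102, 104, 105 and 102 CPM in cohort 2 in the same order (-0.97, SE 0.11). In each case both cohort 1 libraries lay above all 4 cohort 2 libraries, which were close to each other. Dlgap3 measured 242 and 236 CPM, then 126, 144, 129 and 135 CPM (-0.99, SE 0.12). Shank3 was 1.59-fold lower (-0.67, SE 0.12). Dlgap2, Anks1b, Dlg2 and Dlgap1 were lower by 0.47, 0.46, 0.40 and 0.34 on the log2 scale. Dlg1, which did not pass the test, measured 344 and 409 CPM against 316 to 349 CPM (-0.35, SE 0.12, edgeR adjusted p = 0.0629).

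These counts depended on single libraries. Without the RunGH library of cohort 2 the number of called genes fell from 9 to 4, leaving Dlg4, Dlgap3, Shank1 and Shank2, and without any one of the other cohort 2 libraries it was 5. The share of all genes called lower fell too, from 18.1% to 5.89% without RunGH and to 7.77%, 9.92% and 10.3% without SedGH, RunSI and SedSI of cohort 2. Without the SedGH library of cohort 1 the scaffold count was 10 (23.8% of all genes lower), and the Dlg1 difference was then -0.50 (adjusted p = 5.95e-05). Each such fit had 1 residual degree of freedom.

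In PV nuclei 7 of the 10 genes were called lower in cohort 2 (28.2% of genes called, 12.9% lower). Dlgap3 differed most, with 101 and 114 CPM in RunGH and SedGH of cohort 1, and 46.4, 16.6, 49.2 and 37.2 CPM in RunGH, SedGH, RunSI and SedSI of cohort 2 (log2 difference -1.66, SE 0.28, edgeR adjusted p = 5.10e-05). Shank1 (-1.46, SE 0.18), Shank2 (-1.35, SE 0.20) and Dlg4 (-1.29, SE 0.25) followed. Dlg1 (-0.84, SE 0.19), Dlgap2 (-0.75, SE 0.15) and Shank3 (-0.72, SE 0.25) were called too, whereas Anks1b (-0.37), Dlg2 (-0.34) and Dlgap1 (-0.24) were not. Without the RunGH library of cohort 2 the count fell to 4, with Dlg1, Dlgap2 and Shank3 lost (3.72% of all genes lower), and without the SedGH library of cohort 1 it rose to 10 (14.1% lower). The Shank3 call was lost in 8 of 16 alternatives: without RunGH of cohort 1 (-0.80, adjusted p = 0.105), RunGH or SedGH of cohort 2 (-0.73 and -0.72, adjusted p = 0.356 and 0.0922), with DESeq2 (-0.73), at 1000 genes per nucleus (-0.73), at 2 times the UMI minimum (-0.51), with the background subtracted (-0.62) and after thinning (-0.32). The Dlg1 value in PV nuclei moved to -0.26 (adjusted p = 0.428) with the background subtracted, and its call was also lost with DESeq2 (-0.83, adjusted p = 0.062) and after thinning (-0.61, adjusted p = 0.114). Dlg4 was not called after thinning (-0.87, adjusted p = 0.108). Without the filter on low counts Dlg2 (-0.42) and Anks1b (-0.45) were called. Pyramidal markers in PV nuclei were also higher in cohort 1, at 160 and 201 CPM against 54.1 to 94.5 CPM in cohort 2, and their part was not tested.

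Over the 10 neuron classes named by layer or interneuron marker, Dlgap3 was called lower in cohort 2 in 9, Dlg4, Dlgap2, Shank1 and Shank2 in 8 each, and Shank3 in 6. Anks1b was called in 4, Dlg2 in 3, and Dlg1 and Dlgap1 in 2 each. No scaffold gene was called higher in any of them. The cohorts were clustered apart, so these classes, mid-layer among them, need not hold the same nuclei in both. Over all genes the share called lower ran from 3.48% in VIP to 19.3% in layer 2/3 nuclei. In the 13 classes other than pyramidal and PV together, 64 of 129 scaffold tests were called (all lower, 27.2% of all tests called, 12.3% lower, 47 by DESeq2), and 30 without the RunGH library of cohort 2 (3.86% of all tests lower).

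Gene length moved with the cohort difference over all genes. In pyramidal nuclei the Spearman correlation between length and the log2 difference was -0.461 over 17934 genes, a description across genes that are not independent. The median difference was 0.11 for genes under 100 kb and -0.48 for genes over 200 kb. The long scaffold genes other than Shank2 lay between -0.34 and -0.47, close to that median. The short ones, Dlg4, Dlgap3, Shank1 and Shank3, lay between -0.67 and -1.24, below the median of the short genes. In PV nuclei the correlation was -0.572, with medians of 0.18 and -0.52.

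Free RNA also differed. The level in background droplets relative to all nuclei of the same library was lower in cohort 2 than in cohort 1 for 7 of the 10 genes and higher for Shank1, Dlg4 and Dlgap3. Relative to all nuclei of the same library, Shank1 stood at -1.17 on the log2 scale in the background droplets of cohort 1 and at 0.11 in those of cohort 2 (mean of 2 and of 4 libraries), and Dlg4 at -0.35 and 0.54. Dlg2, with the largest fall, went from 0.12 to -1.66. With the background subtracted the pyramidal cohort differences were -1.37 for Shank1, -1.36 for Shank2, -1.06 for Dlgap3, -1.05 for Dlg4 and -0.68 for Shank3, each at least as large as before. Those of Dlgap2 (-0.51), Anks1b (-0.44) and Dlgap1 (-0.36) changed little, but Dlgap1 was no longer called (adjusted p = 0.0546). Dlg2 shrank from -0.40 to -0.31 and was not called (adjusted p = 0.113), and Dlg1 shrank from -0.35 to -0.25.

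**Figure D5:**
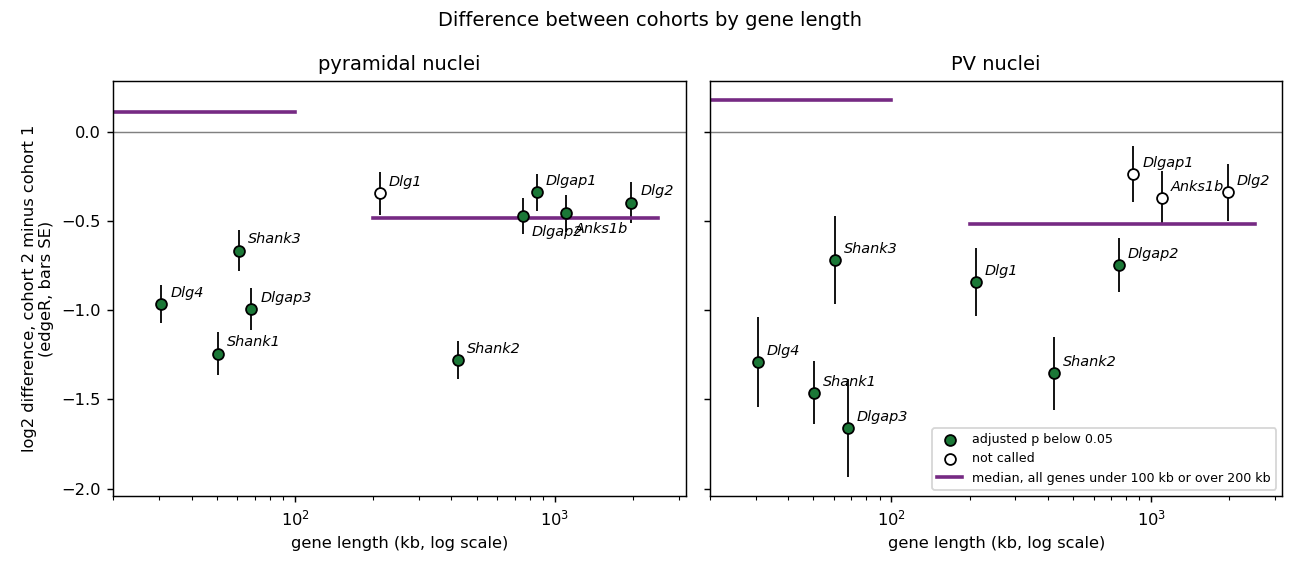
Log2 difference between cohorts (cohort 2 minus cohort 1) of each scaffold gene against its gene length in kb (log axis) in pyramidal and PV nuclei (points; bars are SE; filled points have an adjusted p below 0.05). Purple lines mark the medians of all genes under 100 kb and over 200 kb; Dlg4, Dlgap3, Shank1 and Shank3 lie below the line for short genes, and Shank2 lies below the line for long genes.

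Among the other excitatory postsynaptic genes 29 of the 42 were called between cohorts in pyramidal nuclei, where 38.4% of all genes were called (18.1% lower). Of these 27 were lower in cohort 2, led by Sipa1l2 (-1.37), Grip2 (-1.34) and Sipa1l3 (-1.18), and 2 were higher, Lrrtm1 (0.94) and Pick1 (0.56), with a median of -0.57, the same as for the scaffold genes. In PV nuclei 21 of 41 were lower (12.9% of all genes), Grin2a (-1.28), Cnksr2 (-1.26) and Dlg3 (-1.23) most, and Pick1 was higher (0.94). Of the 8 inhibitory postsynaptic genes 5 were lower in pyramidal nuclei, among them Shisa7 (-1.13), Nlgn2 (-0.88) and Lhfpl4 (-0.85), and 3 in PV nuclei, Lhfpl4 (-1.3), Shisa7 (-1.3) and Iqsec3 (-0.71).

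Because the cohorts differed, the inhibitory against pyramidal comparison was also tested for a change between cohorts, an addition made after the data were seen. It was called for 2 of the 10 scaffold genes and for 3.81% of 15662 genes, 2.84% lower. Dlg1 measured 170 and 170 CPM in the inhibitory nuclei of cohort 1 and 115, 111, 109 and 101 CPM in those of cohort 2 (RunGH, SedGH, RunSI and SedSI). Its inhibitory minus pyramidal difference was lower in cohort 2 by 0.53 on the log2 scale (SE 0.10, edgeR adjusted p = 0.00112). Dlgap2 measured 3068 and 3495 CPM in cohort 1 and 2095, 2260, 2041 and 1980 CPM in cohort 2, and its difference was lower by 0.31 (SE 0.08, adjusted p = 0.0177). DESeq2 called neither gene (adjusted p = 0.0714 and 0.493). The Dlg1 change was 0.07 (adjusted p = 0.894) with the background subtracted, and the Dlgap2 call was lost without any one of the 6 libraries (differences of -0.16 without SedGH of cohort 2 to -0.30). The other 8 genes had changes between -0.26 and 0.05.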

How the data were processed

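Single-nucleus RNA was measured in 6 Chromium 3' V3 libraries of the PL. The authors aligned reads to mm10 with Cell Ranger (6.0.0 in the processing notes, 4 in the headers of all 6 matrices), with introns included by the study's account, and deposited raw UMI counts for every barcode. These counts are not normalized, and no cell annotation was used. Nuclei with 500 to 4000 detected genes, at most 1% mitochondrial UMIs and a minimum number of UMIs were kept. The minimum was the 99th percentile of UMIs divided by 10, taken over the deepest barcodes, as many as the nuclei expected in a library. It ran from 621 UMIs in SedGH of cohort 2 to 3156 in SedGH of cohort 1. The upper limit on genes removes the deepest nuclei as well as doublets. From 1.09 to 6.75% of nuclei in a library resembled simulated doublets and were kept, except in an alternative.

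Within each cohort, nuclei were clustered with scanpy 1.11.5 (Pearson residuals of 3000 genes without the 10 scaffold genes, 35 components, 20 neighbours, Leiden resolution 0.6). Clusters were named from marker lists written down in advance, but the naming rule was set once the clusters were known, and 1976 nuclei entered no class comparison, 1889 in unnamed and 87 in vascular clusters. Counts were summed per library and class. The sums were tested with edgeR 4.0.16 (TMM, filterByExpr, quasi-likelihood) in R 4.3.3: conditions as cohort plus maternal environment plus housing with 2 residual degrees of freedom, and classes with library as a block. P-values were adjusted by Benjamini-Hochberg over all genes of a fit, with a threshold of 0.05. DESeq2 1.42.0 was an alternative. Neighboring classes were compared by an exact sign-flip test on log2(CPM + 1), with a pseudocount of 1. The fits were tested on simulated counts, and between 0.704% of calls (maternal, PV) and 13.3% (housing, pyramidal) were false there, above the threshold in each pyramidal comparison. Intervals at 95% are exact and cover counting error only. Total counts of 19134955 to 188952936 UMIs per library leave short genes in small classes with few UMIs.

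Some list and marker genes are not reported here. The 10 genes and both gene lists were chosen with earlier results of these data known. Named genes were all 10 scaffold genes, the gene most like each across classes (at least 100 UMIs), and from each list at most the 3 called genes with the greatest difference in each direction. Cohort numbers in the labels pair the libraries, and same-numbered group-housed libraries deviated together (r = 0.724 over 15774 genes in pyramidal nuclei), so cohort was a term of each condition fit. Alternatives covered size factors, filters, doublets, background, thinning to 1000 UMIs, clustering, group-housed libraries alone, and leaving out each library. Thinning left out nuclei below 1000 UMIs, 882 of 5826 in SedGH of cohort 2 and none in the other libraries.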

Additional observations from a re-analysis of the deposited data

Results flagged for a closer look

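The difference between inhibitory and pyramidal nuclei itself differed between cohorts for 2 scaffold genes, by a test of the class by cohort interaction. Dlg1 was lower in inhibitory relative to pyramidal nuclei in cohort 2 by a further log2 difference of -0.53 (SE 0.10), and Dlgap2 by -0.31 (SE 0.08). With the background subtracted the Dlg1 value was 0.07 and the Dlgap2 value -0.29, and neither was called. The part that free RNA or depth had in them was not tested further.

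The comparisons left out 1976 nuclei, 1889 in clusters that the naming rule did not place and 87 in vascular clusters of cohort 1. Some of the unplaced clusters had clear leading genes, such as F13a1 and Mrc1 in 1 cluster of cohort 2. These nuclei held 104677 UMIs of the 10 scaffold genes, 11998 to 14852 CPM in a library, in each library below its own pyramidal nuclei.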

How the results depend on the processing

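Without the cohort or library block, the called scaffold genes fell from 9 to 3 for inhibitory against pyramidal nuclei, from 9 to 1 for PV against SST and from 6 to 1 for layer 2/3 against layer 6, and stayed at 0 for maternal environment and housing. For these class comparisons calls over all genes fell as well, from 8233 to 3819, from 2855 to 954 and from 6060 to 2512 in the same order. In non-neuronal classes 36 of 40 tests became 21 at 2 times the UMI minimum (34 to 36 without single libraries). At that minimum calls over all genes went from 12990 to 3563. The pyramidal cohort count of 9 was 5 with group-housed libraries alone and 4 to 10 without single libraries. The PV cohort count of 7 was 4 after thinning and 4 to 10 without single libraries, and the count of 64 in the other classes was 30 to 73. The 2 class by cohort calls became 0 with DESeq2, background subtraction, thinning or group-housed libraries alone, and 1 with RLE size factors, 2 times the UMI minimum, doublets left out, alternative clustering or without any single library. The Dlg1 value reversed there to 0.070 with the background subtracted. Leaving out libraries gave 0 to 1 maternal calls in pyramidal nuclei and 0 to 2 in the other classes. The causes were not tested. Alternative clustering lacked 2 non-neuronal classes, and group-housed libraries alone could not test housing.

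Over all genes, the pyramidal maternal count of 0 was 45 with DESeq2, 2620 without RunGH and 2585 without SedGH of cohort 1. Other counts that moved by more than 1.5 times ran from 3819 to 8784 (inhibitory against pyramidal, 8233), from 954 to 2864 (PV against SST, 2855), from 2512 to 6444 (layer 2/3 against layer 6, 6060), from 3117 to 9082 (cohort in pyramidal, 6894) and from 915 to 3165 (cohort in PV, 2903). In PV the maternal count of 11 ran from 0 to 135, in pyramidal nuclei the housing count of 0 from 0 to 37, and the class by cohort count of 597 from 83 to 572. Non-neuronal calls (12990) ran from 3563 to 19910, cohort calls in other classes (32094) from 11912 to 35193, and maternal and housing calls in other classes (64 and 7) from 0 to 3969 and from 0 to 130. Housing in PV ran from 0 to 2, and PV minus pyramidal from 0 to 20 for maternal environment and from 0 to 11 for housing (0 and 5 in the main design). Depth limited Dlg1, Dlg4, Dlgap3 and Shank3 in rare classes, since each had fewer than 10 UMIs in at least 1 library of an interneuron class. In oligodendrocyte precursors Shank2 also had few or no UMIs in at least 1 library.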
